A study of Mus musculus with 8 samples.

Results

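The immediate early genes were 10 of the 15576 genes in the count table of the murine leukemic stem cells (LSCs): Fos, Fosb, Jun, Junb, Egr1, Egr3, Ier2, Nr4a1, Btg2 and Zfp36, each taken as the row with that symbol. They were chosen by measured values of this same comparison, since their CPM had been seen to be lower in the treated group, so the values below describe how far, how evenly and in which libraries each one was lower, and a count of calls among them is printed only beside the share over all genes. Bulk RNA-seq was compared between 4 libraries of untreated CML mice and 4 libraries of CML-TKI mice, which asks how LSCs that persist under a tyrosine kinase inhibitor (TKI) differ from untreated ones. The mice were C57BL/6 and all carried the BCR-ABL and SCL-tTA transgenes, in which the tetracycline-regulated oncogene BCR-ABL is expressed in stem cells through the SCL-driven transactivator once tetracycline is withdrawn, so both groups are leukemic and neither is a healthy control. By the labels, the CML-TKI mice were given 400 mg/kg imatinib, the inhibitor of the BCR-ABL kinase, by gavage on alternate days for 30 days, whereas a figure legend of the study names a lower dose for the sequenced LSCs, so the dose is not certain. RNA came from sorted bone marrow cells that the labels call stem cells, with a gate (Lin-Sca1+cKit+Flt3-CD150-CD48+) that differs in CD150 and CD48 from the LSC gate in the study's figure legends (CD48-CD150+). The age of the mice and the number of mice behind each library were not given in the sources used here, so the spread between libraries may be in part technical. The libraries are called CML 1, CML 2, CML 3 and CML 5 and CML-TKI 1 to CML-TKI 4, where CML 5 is the fourth untreated column of the table and carries a number that no sample label has.

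Immediate early genes are switched on within minutes of a growth factor, cytokine or stress signal without new protein synthesis, because the factors that act on their promoters are already in place and are modified by kinases. SRF with its ternary complex partners, which ERK phosphorylates, and CREB with its CRTC coactivators are the best known of these factors. Many of the genes encode short-lived transcription factors, above all the FOS and JUN proteins that pair as AP-1, and the transcripts themselves are short-lived, so that the RNA level follows recent signalling. In hematopoietic cells they are known both as targets of cytokine and BCR-ABL signalling and as genes that respond to tissue dissociation and sorting.

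The promoters are shown first because CREB, SRF and the EGR factors act at such sequences, and some of these promoters hold the letters they recognise. RefSeq windows on GRCm38.p6 were found for 7 of the 10 genes (Btg2, Fos, Fosb, Jun, Junb, Nr4a1 and Zfp36), each running from 250 bases before a start to 50 bases after it. The 250 bases before the start are printed for 4 of these genes, Fos for its paired TGACG and TATAAA, Nr4a1 for its repeated TGACG, Btg2 for TGACGTCA and Zfp36 for its CArG box, on the strand of the gene, with TGACG on either strand (read as CGTCA on the other), TGACGTCA, the CArG box and TATAAA in capitals. The stretches are chr12:85473640-85473889 (plus strand) for Fos, chr15:101266596-101266845 (plus strand) for Nr4a1, chr1:134079156-134079405 (minus strand) for Btg2 and chr7:28379229-28379478 (minus strand) for Zfp36.
Fos: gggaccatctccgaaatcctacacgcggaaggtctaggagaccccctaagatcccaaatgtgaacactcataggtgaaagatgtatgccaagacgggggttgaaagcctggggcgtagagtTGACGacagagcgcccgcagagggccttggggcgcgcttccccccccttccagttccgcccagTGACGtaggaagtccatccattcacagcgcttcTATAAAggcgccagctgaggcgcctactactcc
Nr4a1: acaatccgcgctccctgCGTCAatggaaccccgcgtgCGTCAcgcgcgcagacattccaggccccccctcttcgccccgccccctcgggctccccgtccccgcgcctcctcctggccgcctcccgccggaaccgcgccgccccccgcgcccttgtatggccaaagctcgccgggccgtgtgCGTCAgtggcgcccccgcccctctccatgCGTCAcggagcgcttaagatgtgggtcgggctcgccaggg
Btg2: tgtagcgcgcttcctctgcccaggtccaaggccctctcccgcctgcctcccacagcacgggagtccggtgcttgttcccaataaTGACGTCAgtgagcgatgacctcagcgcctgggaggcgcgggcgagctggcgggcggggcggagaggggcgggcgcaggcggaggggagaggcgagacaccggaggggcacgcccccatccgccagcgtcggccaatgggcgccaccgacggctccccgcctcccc
Zfp36: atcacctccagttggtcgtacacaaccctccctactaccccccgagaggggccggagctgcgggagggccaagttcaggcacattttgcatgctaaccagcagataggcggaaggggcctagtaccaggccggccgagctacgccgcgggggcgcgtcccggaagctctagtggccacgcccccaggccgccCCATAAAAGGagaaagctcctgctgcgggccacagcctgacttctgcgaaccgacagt

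TGACG, the core of the CREB site, was searched on both strands over the 300-base windows and was present in 5 of the 7 (Btg2, Fos, Fosb, Junb and Nr4a1), and in 28.8% of the 15360 windows of the genes in the table. The Fos promoter holds it at 66 and at 129 bases before the start, with TATAAA at 33. The Nr4a1 promoter holds it 4 times, each time on the other strand, and this window lies at a start inside the gene and not at its first base. Btg2 was the only one of the 7 with the full TGACGTCA, which overlaps TGACG and is in 2.79% of all windows. Zfp36 was the only one with a CArG box, the letters SRF binds, which is in 1.37% of all windows. GCGNGGGCG, the EGR site, was present in Btg2, Fosb, Nr4a1 and Zfp36 and in 9.73% of all windows, and TGANTCA, the AP-1 site, in none of the 7 and in 5.55% of all windows. TATAAA was in Fos and Junb and in 7.9% of all windows, GGGCGG, the SP1 site, in each of the 7 but Junb and in 58.6% of all windows. CCGGAAG, the ETS site of ternary complex factors, and TTCNNNGAA, the STAT site, were in Zfp36 alone among the 7 and in 15.4% and 7.03% of all windows. A match describes letters and not binding, and the absence of one says only that these letters are not in this window.

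The 10 genes together held 1527, 1569, 1581 and 2469 CPM (counts scaled to a common library total, with TMM factors) in CML 1, 2, 3 and 5, and 346, 385, 233 and 394 CPM in CML-TKI 1 to 4. The groups lie far apart on this sum, with the lowest CML library at 1527 and the highest CML-TKI library at 394 CPM. The mean sum was 1786 ± 456 (SD, n = 4) in CML and 340 ± 73.8 (SD, n = 4) in CML-TKI, a ratio of 5.26. All 10 genes had a negative log2 fold change, with a median of -2.23, while the median over the 11937 genes tested was 0. Of the 10 genes, 7 passed an adjusted p of 0.05 in edgeR's quasi-likelihood test as lower, where 3.93% of all genes tested did, and 8 had every CML-TKI library below every CML library, where 13.1% of all genes tested did. The count of 7 fell to 5 without any 1 CML library, where 141 to 257 of all genes were called lower in place of 469, and to 3 with CML 1, 2 and 3 summed, where 20 of 12564 were. These counts follow from how the genes were picked and nothing is read from them. In bulk RNA, fewer cells that express a gene and less of its RNA per cell cannot be told apart.

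**Figure D1:**
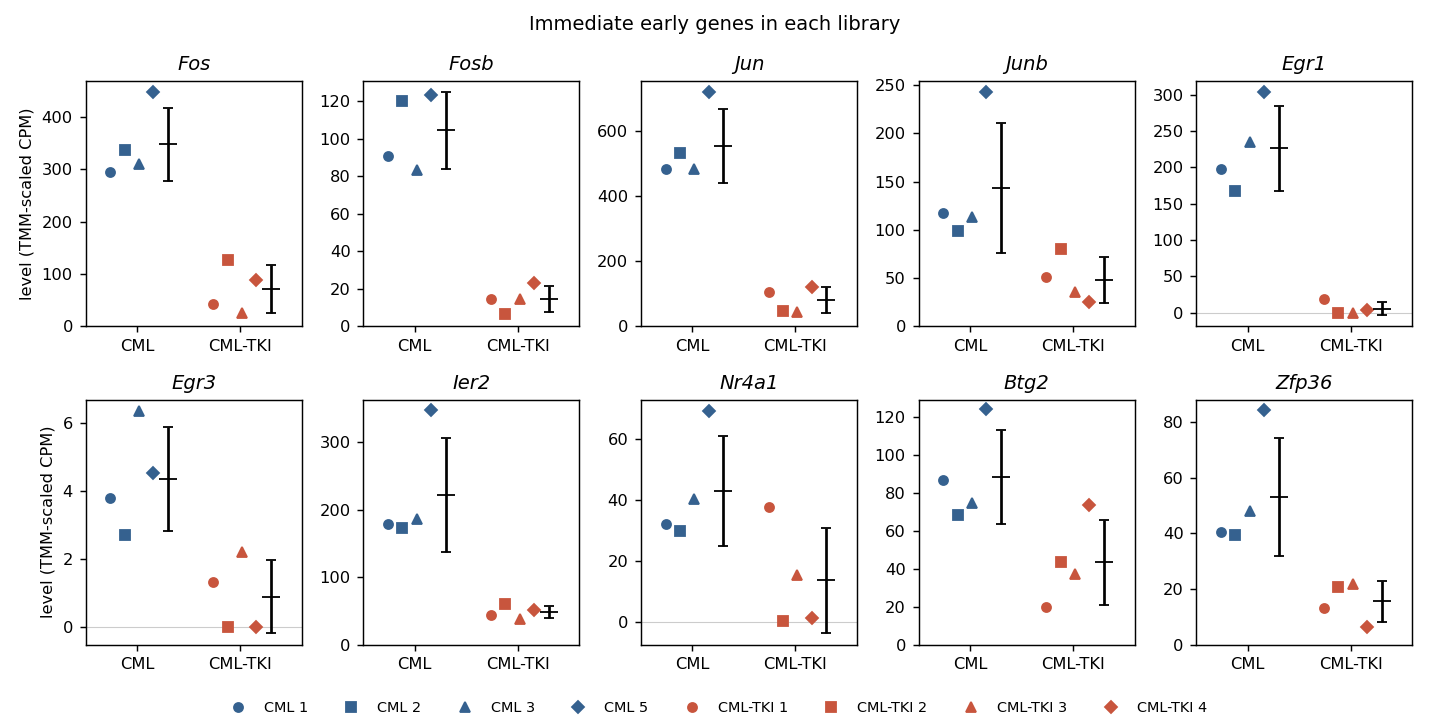
Level of each of the 10 immediate early genes in TMM-scaled CPM (vertical axis, linear, own scale for each gene) in the 4 CML libraries (blue) and the 4 CML-TKI libraries (red), with marker shape giving the library and the black bar the mean ± SD of the group. The groups are apart for 8 genes and overlap for Nr4a1, through CML-TKI 1, and for Btg2, through CML-TKI 4.

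Fos, the FOS protein that forms AP-1 with a JUN partner, was at 295, 338, 310 and 448 CPM in CML 1, 2, 3 and 5 and at 41.8, 127, 25.2 and 89.0 CPM in CML-TKI 1 to 4. The groups did not overlap, but the treated libraries spread widely, with CML-TKI 2 at 36.5% of the CML mean and CML-TKI 3 at 7.25%. The means were 348 ± 69.2 and 70.7 ± 46.1 CPM (SD, n = 4 each), and the log2 fold change was -2.28 (SE 0.45). Fosb, a FOS family member with a shorter splice form that accumulates under repeated stimulation, was at 90.8, 120, 83.3 and 124 CPM in CML and at 14.2, 6.20, 14.2 and 23.2 CPM in CML-TKI. Its lowest treated library was CML-TKI 2, the library in which Fos was highest. The log2 fold change of Fosb was -2.85 (SE 0.38).

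Jun, the JUN protein that JNK phosphorylates, was at 483, 532, 483 and 721 CPM in CML and at 106, 47.1, 43.8 and 120 CPM in CML-TKI. CML-TKI 1 and 4 kept about 20% of the CML mean (19.1% and 21.6%), and CML-TKI 2 and 3 about 8% (8.49% and 7.90%). The log2 fold change of Jun was -2.79 (SE 0.37). Junb, a JUN protein that opposes Jun in proliferation and is known to restrain the expansion of hematopoietic stem cells, was at 117, 98.4, 113 and 244 CPM in CML and at 50.9, 80.3, 35.1 and 24.7 CPM in CML-TKI. The groups were close to touching, since CML-TKI 2 reached 80.3 CPM against 98.4 CPM in CML 2, and the SD of CML rested on CML 5. The log2 fold change of Junb was -1.57 (SE 0.42), and leaving out CML 5 moved it to -1.20.

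Egr1, a zinc finger factor induced through SRF and known to hold hematopoietic stem cells in quiescence, had the largest fold of the 10. It was at 198, 167, 236 and 304 CPM in CML. In CML-TKI it was at 18.2 CPM in CML-TKI 1 (96 counts), 0 in CML-TKI 2 and CML-TKI 3, and 4.16 CPM in CML-TKI 4 (16 counts). Thus the 4 treated libraries held 0% to 8.07% of the CML mean, and the log2 fold change was -5.09 (SE 0.94). It moved to -6.91 without CML-TKI 1, the treated library with most Egr1, and to -6.94 with weighted limma-voom, so its size is uncertain. A count of 0 allows up to 0.93 CPM in CML-TKI 2 but up to 3.29 CPM in CML-TKI 3, the shallowest library, taking 3 counts as the limit and covering counting error only. Egr3, its family member, was near the floor throughout, with 28, 14, 33 and 33 counts in CML and 7, 0, 2 and 0 in CML-TKI. That corresponds to 3.81, 2.70, 6.38 and 4.54 CPM against 1.33, 0, 2.19 and 0 CPM, and the treated values of CML-TKI 2, 3 and 4 lie below the level that 3 counts would give there. The fitted log2 fold change of Egr3 was -2.58 (SE 1.09) and moved to -3.63 without CML-TKI 1, so its size too is not set by these counts.

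Ier2, a nuclear protein of the immediate early response, was the most even of the 10 in the treated libraries. It was at 180, 173, 186 and 348 CPM in CML and at 43.5, 59.8, 38.4 and 51.8 CPM in CML-TKI. Every treated library held between 17.3% and 27% of the CML mean, and the log2 fold change was -2.19 (SE 0.29). Nr4a1, an orphan nuclear receptor that cytokine and antigen receptor signals induce, varied far more between the treated libraries, at 32.3, 29.9, 40.4 and 69.3 CPM in CML and at 37.6, 0.310, 15.3 and 1.56 CPM in CML-TKI. CML-TKI 1 sat within the CML range at 87.5% of the CML mean, while CML-TKI 2 held 0.721% of it (1 count against 198 counts in CML-TKI 1). The log2 fold change of Nr4a1 was -1.64 (SE 0.98). Leaving out CML-TKI 1 moved it to -3.45 and leaving out CML-TKI 2 to -1.22.

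The other 2 genes act to slow growth or shorten transcript life. Btg2, an antiproliferative protein that recruits the CCR4-NOT deadenylase and that p53 also induces, was at 86.6, 68.1, 74.8 and 124 CPM in CML and at 19.6, 43.7, 37.3 and 73.4 CPM in CML-TKI. CML-TKI 4 lay above CML 2, so the groups overlapped, and the log2 fold change of -1.02 (SE 0.38) was the smallest of the 10. Zfp36 (tristetraprolin), which binds AU-rich elements in the transcripts of cytokines and of immediate early genes and speeds their decay, was at 40.6, 39.2, 47.9 and 84.1 CPM in CML and at 13.1, 20.8, 21.9 and 6.24 CPM in CML-TKI. The groups were apart, and the log2 fold change was -1.81 (SE 0.44). Jun and Zfp36 each have an antisense gene on the other strand (Junos and Gm44710) that has no row in the table, and without strand in the counting its reads cannot be told apart from theirs.

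**Figure D2:**
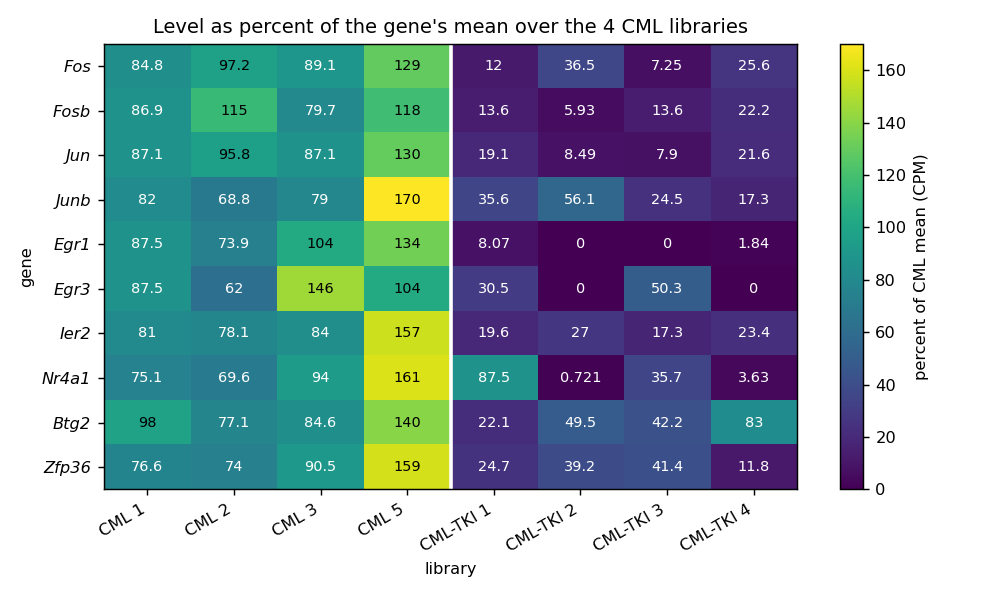
Level of each gene (rows) in each library (columns) as a percent of that gene's mean CPM over the 4 CML libraries, printed in each cell and shown by colour. CML-TKI libraries hold 0% to 87.5%, and Nr4a1 is highest in CML-TKI 1, Junb in CML-TKI 2 and Btg2 in CML-TKI 4, while the 50.3% of Egr3 in CML-TKI 3 is 2 counts and cannot be ranked.

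Per treated library, the median of the 10 genes was 20.9%, 17.7%, 20.9% and 19.4% of the CML mean in CML-TKI 1 to 4. Nr4a1 ran from 0.721% to 87.5% and Ier2 from 17.3% to 27% of its CML mean. The ratio of one gene to another within a library does not depend on the scaling. The ratio of Jun to Fos counts was 1.64, 1.57, 1.56 and 1.61 in the CML libraries and 2.54, 0.372, 1.74 and 1.35 in the CML-TKI libraries. The ratio of Egr1 to Fos was between 0.495 and 0.760 in CML and was 0.436, 0, 0 and 0.0468 in CML-TKI. Nr4a1 to Fos was between 0.0885 and 0.155 in CML and ran from 0.00244 in CML-TKI 2 to 0.900 in CML-TKI 1. The ratio of Junb to Jun was between 0.185 and 0.338 in CML and between 0.206 and 1.70 in CML-TKI, and that of Ier2 to Fos between 0.512 and 0.777 and between 0.472 and 1.52. Each of these 5 ratios spanned a wider range in the treated libraries than in the untreated ones, where CML 1, 2 and 3 are very alike. These 3 libraries differed from each other by far less than any other pair of libraries of a group (chi-square per degree of freedom 3.56 to 4.79, against 23.9 to 60.6), which is still more than sampling noise, and whether they came from separate animals was not given in the sources used here. With CML 1, 2 and 3 summed to 1 library, 122 genes were called in place of 1220.

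Levels of different genes were compared per kilobase of transcript. In CML the mean level per kilobase was highest for Jun (174 ± 35.5 CPM per kb), Fos (165 ± 32.8) and Ier2 (146 ± 55.4), which lie within each other's SD. Junb (79.1 ± 37.3) and Egr1 (74.5 ± 19.4) followed and did not differ beyond their spread, then Btg2 (32.2 ± 9.08) and Fosb (27.6 ± 5.40), then Zfp36 (19 ± 7.58) and Nr4a1 (17.4 ± 7.31), and Egr3 was last at 1.11 ± 0.39 CPM per kb (SD, n = 4). In CML-TKI the first 4 were Fos (33.5 ± 21.9), Ier2 (31.8 ± 6.19), Junb (26.4 ± 13.4) and Jun (24.9 ± 12.4), and their ranges over the libraries overlapped. Egr1 moved from the fifth place to the ninth, at 1.84 ± 2.85 CPM per kb. Its treated libraries ran from 0 to 6.005 CPM per kb and overlapped those of Fosb (1.639 to 6.121), Nr4a1, Zfp36 and Egr3. Its place among these is therefore not set.

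The lower level of Fos and Fosb went with a higher level of a gene of the same family. Fosl2, which encodes the FOS protein FRA-2, was at 27.7, 21, 28.6 and 31.5 CPM in CML and at 174, 192, 95.3 and 132 CPM in CML-TKI. It was higher in every treated library, with a log2 fold change of 2.45 (SE 0.27, edgeR adjusted p = 0.00087), and 6.29% of all genes tested were called higher. Counted per length, Fosl2 made up 1.65% to 2.52% of the FOS family level in the CML libraries and 29.5% to 53.0% in the CML-TKI libraries, while Fos went from 82.0% to 84.8% down to 39.5% to 66.0%. In the JUN family, Jund, the JUN protein least dependent on stimulation, was lower (151 ± 70.0 against 59.1 ± 17.1 CPM, log2 fold change -1.35, edgeR adjusted p = 0.0343), but its share of the family was 23.2% to 29.8% in CML and 27.7% to 49.8% in CML-TKI, since Jun was lower by more. The call of Jund was lost when any 1 of the 4 CML libraries, CML-TKI 2 or CML-TKI 3 was left out, and over all 15 alternatives its edgeR, DESeq2 or limma adjusted p reached at most 0.117. The family total per length was 197 ± 37.6 against 60.0 ± 25.9 CPM per kb for FOS and 344 ± 114 against 86.7 ± 16.1 CPM per kb for JUN (SD, n = 4).

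**Figure D3:**
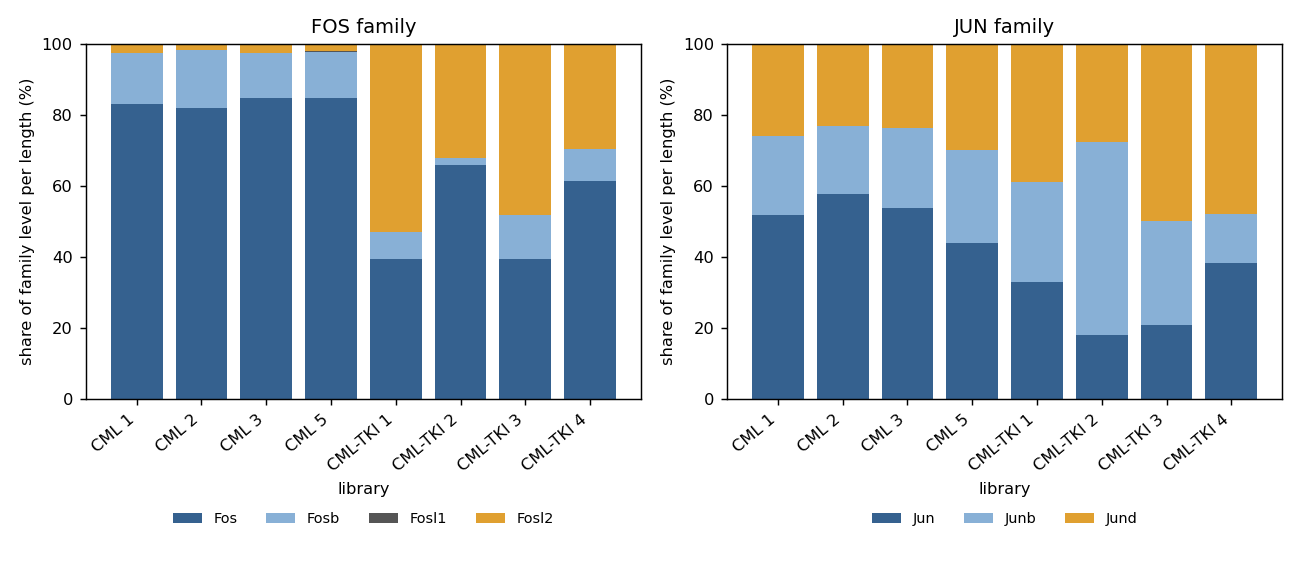
Share of each gene in the summed level per length of its family (vertical axis, percent) in each library, for the FOS family (left) and the JUN family (right). Fosl2 takes 1.65% to 2.52% of the FOS family in CML and 29.5% to 53.0% in CML-TKI, and Jun has the largest share of its family in every CML library.

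Among the other families of the 10 genes, Egr1 made up 97.7% to 98.6% of the EGR level per length in CML, and in CML-TKI the family total was too low for its shares to be read. Zfp36l2, a relative of Zfp36 needed for hematopoietic stem cells, made up 88.8% to 93.2% of the ZFP36 family in CML and 78.9% to 91.9% in CML-TKI. Its level was lower in every treated library, at 951 ± 77.6 against 276 ± 37.2 CPM (SD, n = 4, log2 fold change -1.78, edgeR adjusted p = 0.00087), so that the more abundant member of this family was lower as well.

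Beyond the 10, 49 further immediate early genes were listed, of which 36 were tested, and these did not share one direction. Of the 36, 5 were called lower and 4 higher, 27 passed in neither direction, and their median log2 fold change was -0.16. The split by direction depends on the libraries, since 1 was lower of 4 called without any 1 CML library, 2 were lower without CML-TKI 2 or CML-TKI 4, and 8 were lower with DESeq2 and with weighted limma-voom. Over all genes tested, 3.93% were called lower and 6.29% higher, and these are the shares to set beside this count and beside those of the lists that follow. Ppp1r15a (GADD34), which ends the block on translation after stress, was at 130, 118, 156 and 194 CPM in CML and at 19.8, 7.44, 17.5 and 15.6 CPM in CML-TKI (log2 fold change -3.32, edgeR adjusted p = 0.000782). Rgs1, a regulator of G protein signalling, was at 59.2 ± 2.28 against 5.26 ± 5.12 CPM (log2 fold change -3.55, edgeR adjusted p = 0.0255). Without CML-TKI 1, its log2 fold change was -4.67. Csrnp1, a nuclear protein, Ier3, a survival gene, and Jund were the other 3 lower ones, with log2 fold changes of -1.53, -2.21 and -1.35 and edgeR adjusted p of 0.0213, 0.0421 and 0.0343, and Ier3 moved to -2.88 without CML-TKI 1.

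The 4 genes that rose were Fosl2, Klf4, Nfil3 and Gadd45b. Klf4, a zinc finger factor of monocyte differentiation, was at 7.35, 15.2, 10.2 and 11 CPM in CML and at 53.4, 136, 186 and 74.9 CPM in CML-TKI (log2 fold change 3.35, edgeR adjusted p = 0.00181). Nfil3, a bZIP repressor, was at 2.16 ± 0.98 against 28.2 ± 11.2 CPM (log2 fold change 3.66, edgeR adjusted p = 0.0022). Gadd45b, a stress sensor upstream of p38 and JNK, was at 2.92 ± 1.19 against 12.2 ± 4.64 CPM (log2 fold change 2.05, edgeR adjusted p = 0.0413). Fosl2, Klf4 and Ppp1r15a passed under each of the 15 alternatives tried, whereas Csrnp1 and Jund passed under 7, Ier3 under 6, Gadd45b under 5, Rgs1 under 8 and Nfil3 under 13.

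**Figure D4:**
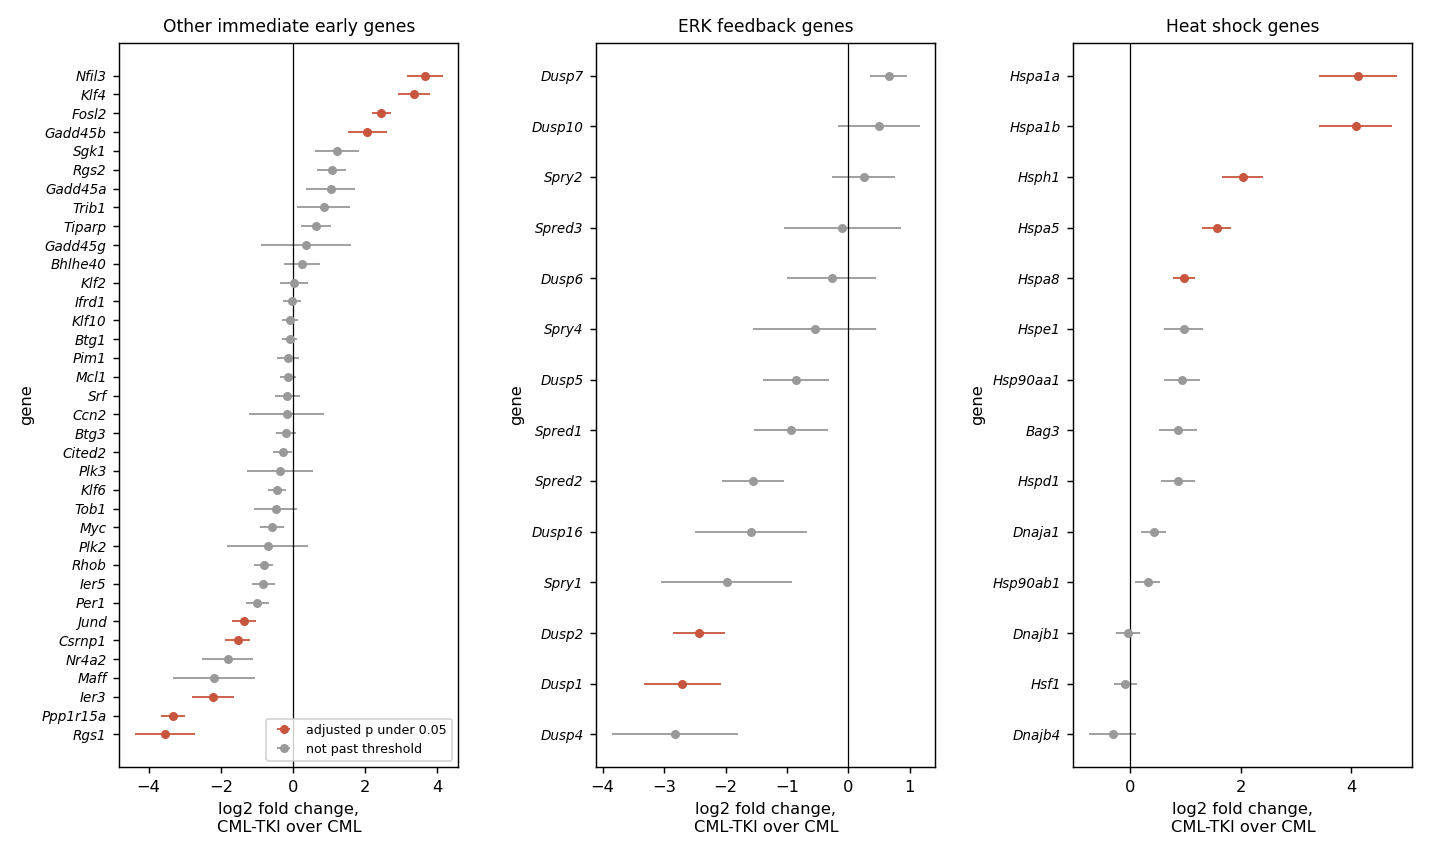
Log2 fold change of CML-TKI over CML (horizontal axis) with its standard error for every tested gene of 3 lists, the other immediate early genes, the feedback genes of the ERK pathway and heat shock genes. Red points passed an edgeR adjusted p of 0.05 and grey points did not, and the first list holds calls on both sides of 0.

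The genes upstream of the immediate early genes were described from lists. None of 22 tested genes of the ERK cascade (adaptors, RAS, RAF, MEK, ERK and the kinases downstream of ERK) passed edgeR's adjusted threshold, with a median log2 fold change of 0.25. The listed receptor, Egfr, did not pass the count filter and was not tested. At an unadjusted p under 0.05 there were 3 of 22, against 3073 of all 11937 genes. With DESeq2 2 passed (2157 of all genes), with weighted limma-voom 3 (2563), without CML-TKI 1 3 (2504 of 12147) and without CML-TKI 3 1. Of 15 tested SRF and CREB regulators, 2 were lower and none higher (3.93% and 6.29% over all genes). The count was 1 without CML 1, 2 or 3 and 0 with these 3 summed or with the replicate block, and 4 with DESeq2 and with weighted limma-voom. Both genes were CREB coactivators, Crtc1 at 80.9 ± 11 against 20.5 ± 10.3 CPM (log2 fold change -1.96, edgeR adjusted p = 0.00869) and Crtc3 at 72.2 ± 4.27 against 33.2 ± 11.5 CPM (log2 fold change -1.10, edgeR adjusted p = 0.0344). Srf itself was at 81.6 ± 22.2 against 72.7 ± 34.1 CPM (edgeR adjusted p = 0.823), with overlapping groups. Creb1 and Ep300 were not called (edgeR adjusted p = 0.113 and 0.151) but were higher in every treated library. Their log2 fold changes were 0.70 and 0.71. Over the 15 genes, 9 log2 fold changes were negative and 6 positive, where 50% of all genes were negative. Of 17 tested genes of the JNK and p38 cascades, Map3k5 (ASK1) and the p38 target kinase Mapkapk2 were higher, against 6.29% of all genes, with log2 fold changes of 1.46 and 1.10 (edgeR adjusted p = 0.0254 and 0.0243). These calls were not stable, since the list had 0 calls without CML 1, 2 or 3, without CML-TKI 2 or 4, or with CML 1, 2 and 3 summed, 1 call without CML 5 and 6 without CML-TKI 1.

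Feedback genes, which ERK signalling induces and which then shut it off, were negative in 11 of the 14 tested, where 50% of all genes were. Of the 14, 2 were called lower (3.93% of all genes) and none higher, and the median log2 fold change of the list was -0.89. Dusp1, a phosphatase of p38 and JNK and itself an immediate early gene, was at 157, 168, 146 and 286 CPM in CML and at 66.1, 5.89, 29.6 and 13.8 CPM in CML-TKI (log2 fold change -2.70, edgeR adjusted p = 0.0252). Dusp2, a nuclear phosphatase of ERK, was at 130 ± 53.0 against 25.2 ± 15.4 CPM (log2 fold change -2.44, edgeR adjusted p = 0.00691). The number of feedback genes called was 7 without CML-TKI 1, where 2504 of 12147 genes were called, 1 without any 1 CML library, CML-TKI 3 or CML-TKI 4, and 0 with CML 1, 2 and 3 summed. Of the partners and targets of ZFP36 in mRNA decay, none of 7 tested genes passed in edgeR, at an unadjusted p under 0.05 either. All 7 were CCR4-NOT subunits. The targets Tnf, Il1b, Ccl3 and Ptgs2 did not pass the count filter, so no target was tested in that fit. From the list, 0 genes passed with DESeq2 and weighted limma-voom, but 1 did without CML-TKI 1 and 1 without CML-TKI 4. Of 11 tested AP-1 partners and AP-1-like bZIP genes, 1 was higher (Fosl2) and 1 lower (Jund). This count of 2 became 4 without CML-TKI 1 and with weighted limma-voom, and 1 without any 1 CML library, CML-TKI 2 or CML-TKI 3.

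Heat shock genes are chaperones and co-chaperones that protein damage and the stress of tissue dissociation can induce. Of 14 tested, 5 were called higher (6.29% of all genes) and none lower, and the median log2 fold change of the list was 0.90. Hspa1b was at 10.1, 31.6, 4.44 and 7.70 CPM in CML and at 82.6, 346, 231 and 251 CPM in CML-TKI (log2 fold change 4.08, edgeR adjusted p = 0.00499), and its near-identical copy Hspa1a, with which it can share reads, had a log2 fold change of 4.13 (edgeR adjusted p = 0.00655). The chaperone Hsph1 and the endoplasmic reticulum chaperone Hspa5 (BiP) had log2 fold changes of 2.04 and 1.57 (edgeR adjusted p = 0.00869 and 0.00581). With CML 1, 2 and 3 summed, 2 of the 14 passed.

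Markers of HSCs, granulocytes and monocytes moved with the treatment group, and the counts of the marker lists stand beside 3.93% of all genes called lower and 6.29% called higher. Of 13 tested HSC markers, 6 were lower and none higher, and their summed level was 2333 to 2875 CPM in CML and 274 to 837 CPM in CML-TKI. Without CML-TKI 1, 12 HSC markers were called (1333 of 12147 genes were lower there), without CML 1, 2 or 3 there were 4 (141 to 171 genes lower), and with these 3 summed 1 (20 of 12564 lower). Slamf1, which encodes CD150, was at 32.4 ± 3.74 against 3.33 ± 2.74 CPM. Of 12 granulocyte markers, 11 were higher (summed 153 to 258 against 1474 to 8569 CPM), with Mpo at 12.6 ± 10.4 against 3121 ± 1754 CPM, and of 10 monocyte and macrophage markers 9 were higher (summed 16.0 to 40.1 against 714 to 3840 CPM). Of 7 megakaryocyte markers 2 were lower (1471 to 1773 against 51.4 to 608 CPM), and of 3 lymphoid and 8 erythroid markers none passed in edgeR (1 and 5 at an unadjusted p under 0.05, 1 and 0 with DESeq2, 1 and 1 with weighted limma-voom). Without CML-TKI 1 there were 1 and 4, and leaving out CML-TKI 2 or CML-TKI 4 gave 3 or 4 erythroid calls. The erythroid markers summed to 155 to 272 CPM in CML and 84.1 to 49370 CPM in CML-TKI, where the globin Hba-a1 was at 19620 CPM in CML-TKI 3 and at 15 to 110 CPM in the other treated libraries, and the lymphoid markers to 31.5 to 48.3 and 26.4 to 333 CPM. With CML 1, 2 and 3 summed, 6 granulocyte, 5 monocyte and 0 megakaryocyte markers were called. The granulocyte calls were 6 without CML 1 or CML 2 and 7 without CML 3, and the megakaryocyte calls ran from 1 (without any 1 CML library or CML-TKI 3) to 5 (without CML-TKI 4). CML-TKI 1 held the lowest granulocyte (1474 CPM) and monocyte (714 CPM) sums of the treated libraries and the highest HSC sum (837 CPM). The part of these markers in the lower immediate early genes was not tested.

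Of 9305 other genes with a mean log2 CPM of 3 or more, 5 were closest to the median profile of the 10 genes over the 8 libraries, by the root mean square distance of centred log2 CPM. They were Lmo2 (distance 0.21), Klk8 (0.27), Slain1 (0.30), Zfp395 (0.31) and St14 (0.32). Lmo2, an adaptor of the SCL transcription complex in stem cells, was at 652, 642, 624 and 756 CPM in CML and at 139, 110, 134 and 158 CPM in CML-TKI. Of the 10 genes themselves, Ier2 (0.31) lay nearest to that median profile and Egr1 (2.70) and Nr4a1 (1.53) farthest. The 5 genes were picked for a small distance to a profile built from values that chose the 10, so these distances are a description.

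The library totals ran from 1041552 counts (CML-TKI 3) to 8620101 (CML 5), and 11835 to 14744 genes had a count. CML-TKI 3 held 213 counts of the 10 genes in all, against 1242 to 1824 in the other treated libraries and 8127 to 17960 in CML. Ribosomal precursor RNA (Rn45s) took 9.23% to 38.3% of the counts, most in CML 5, and with it left out of the totals the number of genes below every CML library in each CML-TKI library was again 8 of the 10. On the first principal component (52.5% of the variance), the CML libraries lay between -74.4 and -69.3, CML-TKI 1 at -19.2 and the other treated libraries between 70.1 and 119.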

How the data were processed

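Bulk RNA-seq of sorted bone marrow cells (4 CML and 4 CML-TKI libraries, Nextera XT) was analysed from the table of estimated counts per gene that the authors deposited. Per the submitters' processing notes and the methods, reads were aligned to mm10 with STAR 2.6.1d and quantified in Partek 8.0, which divides reads between transcripts, so 8.32% to 22.1% of the values per library are not whole. They were rounded. Strand use was not given in the sources used here.

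Groups came from the sample titles. The fourth CML column bears the number 5 and was assigned to its group only. Genes were filtered with filterByExpr (minimum count 10, total 15), scaled by TMM, and tested with edgeR 4.0.16 (quasi-likelihood, robust) in R 4.3.3 with Benjamini-Hochberg adjustment over 11937 genes at 0.05. A log2 fold change is CML-TKI over CML, as fitted by edgeR with its default prior count. The prior count of 2 entered the log2 CPM behind the profile distances, the correlations and the principal component, not the fold changes. CPM are counts scaled to a common library total. Levels per length used GENCODE M21 transcripts with a RefSeq match. Promoters and motifs came from RefSeq (GRCm38.p6).

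All 10 genes are given in every library, every other immediate early gene that passed, and up to 4 genes per further list by lowest adjusted p with its defining markers, plus the 5 genes of closest profile. The 10 genes and all lists were chosen with earlier results of these data known. The family shares, the motifs TGACG and GGGCGG, and naming Srf, Creb1 and Ep300 were added after the values or sequences were seen. Alternatives were DESeq2 1.42.0, limma-voom with sample quality weights (limma 3.58.1), RLE scaling, totals without Rn45s, no filter on low counts, a replicate block, each library left out, and CML 1, 2 and 3 summed.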

Additional observations from a re-analysis of the deposited data

Results flagged for a closer look

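In the group of 4 CML libraries, 3 values stood apart from the rest by Dixon's test, all in CML 5, among 24 groups examined. The chance rate of about 1 in 20 takes the libraries as independent. CML 1, 2 and 3 were very alike, so that rate may not hold here. The sum of the 10 genes includes Junb and Ier2, so the 3 values are not separate. Junb was at 243.5 CPM in CML 5, and the nearest library was at 117.4 CPM. Ier2 was at 348 CPM there, and the nearest was at 186.1 CPM. The 10 immediate early genes summed to 2469 CPM in CML 5, and the nearest was at 1581 CPM. CML 5 also had the largest total count (8620101) and the largest share of Rn45s (38.3%), and their part in these values was not tested. Without CML 5, the median log2 fold change of the 10 genes was -2.02, and the log2 fold changes of Ier2 and Junb were -1.89 and -1.20.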

How the results depend on the processing

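The 10 genes kept a negative log2 fold change under each of the 15 alternatives. Their median ran from -2.49 (without CML-TKI 1) to -2.02 (without CML 5). The counts of calls were less stable. In place of 1220 genes, DESeq2 called 2157, limma-voom with sample quality weights 2563, the fit with CML 1, 2 and 3 summed 122, and leaving out 1 library between 505 (without CML 1) and 2504 (without CML-TKI 1). Of the other immediate early genes, 9 were called, 3 with CML 1, 2 and 3 summed, and 4 to 11 with 1 library left out. These settings change the number of samples or the test, and beyond that the cause was not tested. No log2 fold change of these 10 or of the 9 other called immediate early genes reversed. The median of all genes moved by over 0.1 with totals without Rn45s (-0.125), with weighted limma-voom (-0.114) and with the block (-0.128). TATAAA was in 2 windows and in 1 when only the bases before the start were searched.

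The replicate numbers 1 to 3 occur in both groups. Same-numbered libraries deviated together with correlations of -0.022, 0.152 and 0.091, and differently numbered ones with -0.183 to 0.083. With 3 libraries per group, and CML 1, 2 and 3 very alike, these values cannot settle whether the libraries are paired. The main fit did not take them as pairs. With the replicate block over these 6 libraries 193 genes were called, 3 other immediate early genes among them. Without the block, a fit of the same 6 libraries that was chosen after seeing the data called 589 genes, 4 other immediate early genes among them. Depth limits what can be said of Egr1, Egr3 and Nr4a1 in the treated libraries, and CML-TKI 3 held only 213 counts of the 10 genes.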
